A study of Mus musculus with 47 samples.

Results

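The genes of arginine and polyamine metabolism described here are 10 of the 16366 genes named on the arrays: the arginases Arg1 and Arg2, the arginine transporter Slc7a2, the nitric oxide synthases Nos2 and Nos3, the polyamine genes Odc1, Srm, Sms and Sat1, and the antizyme gene Oaz1. They were chosen by their place in this pathway, with earlier results of these data known, so shares set beside those of all probe sets carry no test. Every probe set annotated to them on any of the 6 array tables was taken. That gave 21 probe set IDs, of which 4 were annotated to more than 1 gene, in 31 pairs of probe set and array.

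Arginine enters a cell through cationic amino acid transporters and is then used by enzymes that compete for it. Arginases hydrolyse it to ornithine and urea, and nitric oxide synthases oxidise it to nitric oxide and citrulline. Ornithine decarboxylase turns ornithine into putrescine, which spermidine synthase and spermine synthase lengthen into spermidine and spermine; spermidine/spermine N1-acetyltransferase marks these polyamines for breakdown or export, and antizyme sends ornithine decarboxylase to the proteasome. In the lung, arginase 1 is a marker of macrophages activated by the type 2 cytokines of allergic inflammation.

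RNA came from mouse lung and was hybridised to Affymetrix murine U74 arrays, which carry A, B and C probe set collections and exist in a first version and as version 2. Mice received either ragweed pollen protein, in alum at sensitization, or PBS; they were sensitized on days 0 and 3, challenged intratracheally on days 10 and 17, with the lungs taken after 24 h or 72 h. The labels name alum for ragweed only, and give no strain, sex or age. The groups were ragweed at 24 h, PBS at 24 h, ragweed at 72 h and PBS at 72 h, with 2 samples each, coded 1a and 1b. The labels do not say that 1a and 1b are separate mice, so a p-value here covers the spread of these samples alone, which may be technical. In whole lung, fewer cells of a type and less RNA per cell cannot be told apart.

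The comparisons used first-version A, version 2 B and version 2 C, where all 8 samples were present, and 25250 probe sets that exceeded an intensity floor, the 40th percentile of their table, on at least 2 arrays were tested; lower values were raised to the floor. The other versions served as a second measurement; version 2 A had 6 arrays, none of them ragweed at 24 h. Of the first-version arrays, those of ragweed lungs came scaled by the authors and those of PBS lungs unscaled. On first-version A and B this step and the treatment therefore cannot be told apart. Version 2 A was scaled by the authors throughout. On version 2 A the ratio of the 3′ to the 5′ actin control was 0.801 and 0.578 in ragweed at 72 h, against 0.189 and 0.198 in PBS at 72 h, and its part in differences on that array was not tested. On version 2 C this actin ratio was 1.60 and 1.43 in ragweed at 24 h, against 1.08 and 0.993 in PBS at 24 h. At 72 h it was 1.11 and 1.39 in ragweed, against 0.869 and 0.861 in PBS, and its part was likewise not tested. Precision is limited by the number of arrays. The standard errors of the 24 h differences had medians of 0.23 (A), 0.32 (B) and 0.45 (C) on the log2 scale.

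Of the 10 genes, Arg1 was higher in ragweed lungs at 24 h and, on version 2 A, at 72 h, and Sat1 was higher in ragweed lungs at 72 h on first-version A. No other probe set of the 10 genes passed the test at either time on any array where it was tested. Arg1 was at least 5.33-fold higher at 24 h, against PBS lungs in which it lay below the floor. Sat1 was 2.17-fold higher at 72 h, but on version 2 A the difference was smaller and did not pass. The nitric oxide synthases Nos2 and Nos3 stayed at or below the floor in nearly all samples. Odc1, Srm, Sms and Oaz1 gave no probe set past the test.

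Of the 12 IDs on the 3 tables, 10 were tested and 2, those of Nos2 and Nos3, were too dim. At 24 h 1 of the 10 was called higher, at a Benjamini-Hochberg adjusted p under 0.05 in limma over all 25250 probe sets, of which 0.21% were called higher. At 72 h 1 of the 10 was called higher, against 0.333% of all probe sets tested. None was called lower, where 0.0198% of all probe sets were at 24 h and 0.194% at 72 h. At an unadjusted p under 0.05, 3 of the 10 passed at 24 h, where 8.67% of all probe sets did, and 3 of the 10 at 72 h, where 9.63% did. The measured values of the ragweed samples lay wholly above those of the PBS samples in 5 of the 10 at 24 h and in 5 of the 10 at 72 h, against 18.6% and 21% of all probe sets tested at those times. The median log2 difference over the 10 probe sets was 0.13 at 24 h and 0.45 at 72 h, and over all probe sets tested it was 0 at both times. These 10 are not the 10 genes: Srm and Slc7a2 count more than once, and some probe sets are shared with pseudogenes. With 1 probe set per gene, 5 of the genes were tested, and their medians were 0.10 at 24 h and 0.38 at 72 h.

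**Figure D1:**
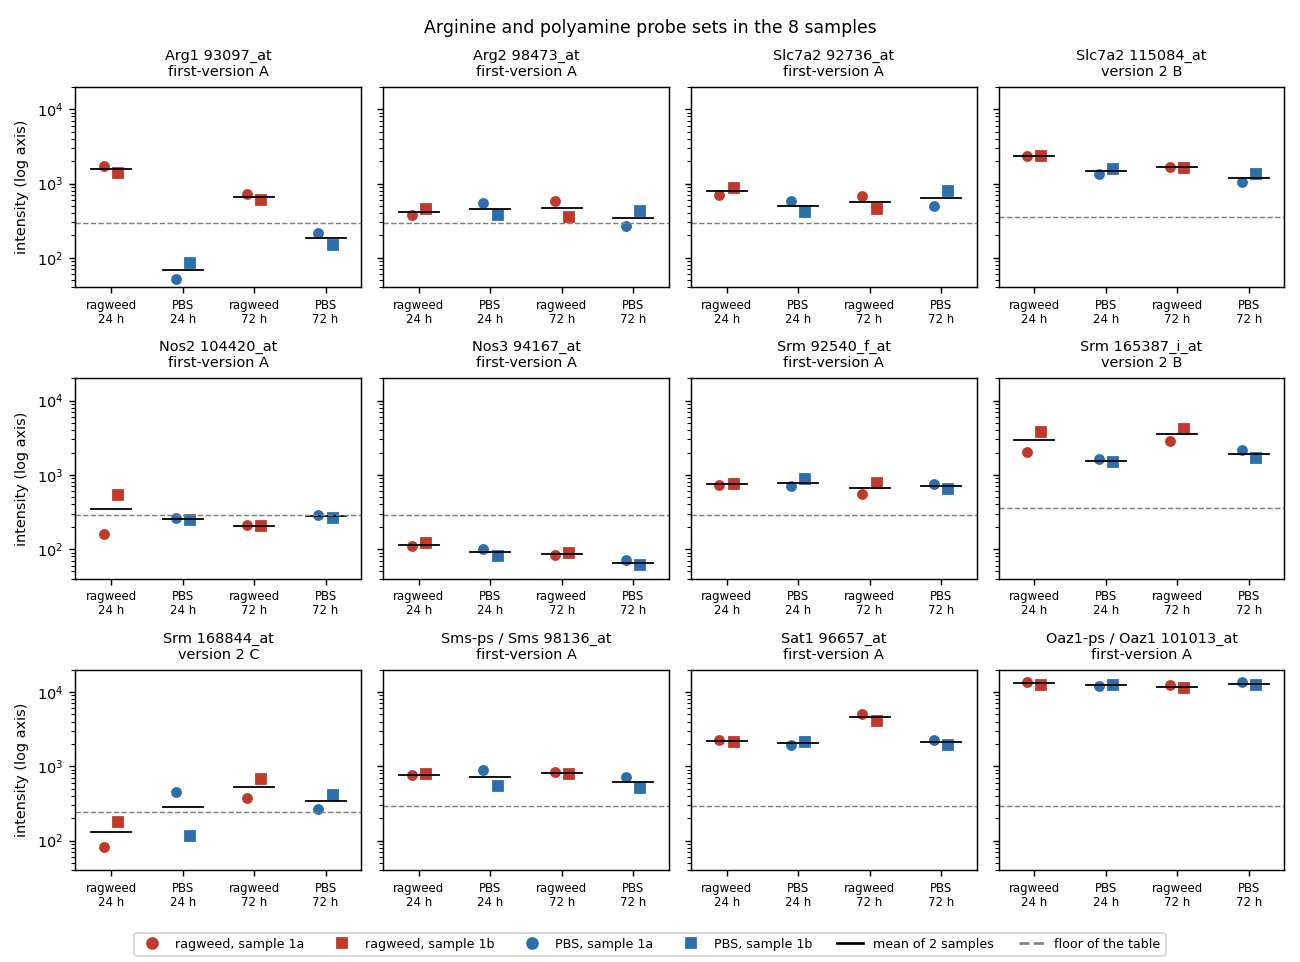
Intensity on a log axis (arbitrary units) of the 12 probe sets on first-version A, version 2 B and version 2 C, with ragweed in red and PBS in blue; circles are samples 1a, squares samples 1b, black lines the mean of 2 samples and dashed lines the floor of the table. Arg1 lies above the floor in the 4 ragweed samples and below it in the 4 PBS samples, and Sat1 stands apart in ragweed at 72 h, where its values are 5045 and 4063.

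Arg1, the cytosolic arginase, was measured by 93097_at. On first-version A its intensity was 1717 and 1407 in ragweed at 24 h, against 51.3 and 84.4 in PBS at 24 h. Ragweed lungs at 72 h had 718 and 609, against 216.5 and 147 in PBS lungs of that time. All 4 ragweed values lay above the floor of 291.6 and all 4 PBS values lay below it, so each difference is a lower bound, taken against the floor, to whose standard error the PBS samples add no spread. At 24 h the log2 difference was at least 2.41 ± 0.25 (SE), with an adjusted p of 0.00658 in limma. The later difference, at 72 h, was at least 1.18 ± 0.25, with an adjusted p of 0.122, and the test was not passed. With values raised only to 20, in place of the floor, the log2 difference at 24 h was 4.56.

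Version 2 A gave a second reading of Arg1 at 72 h. The intensity there was 945 and 933 in ragweed lungs, against 184 and 199.5 in PBS lungs at 72 h. PBS lungs at 24 h gave 149 and 86.4 on the same array. Here too the ragweed values lay above the floor, 237.8 on this table, and the PBS values below it. The log2 difference at 72 h was at least 1.98 ± 0.19 with an adjusted p of 0.0128 in limma, a call that 0.326% of probe sets shared in that direction. Against PBS at 24 h, also under the floor in both samples, the bound is by construction the same (adjusted p 0.00624). On both versions Arg1 exceeded the floor in ragweed samples alone, so it was tested only through the group where it was high. The PBS samples again add no spread to the standard error, and these p-values and the share beside them are no separate support.

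These calls rest on few arrays. Leaving out any 1 PBS sample or any 1 ragweed sample of 72 h ended the first-version call at 24 h (adjusted p from 0.0501 to 0.115 over the 6 fits), while leaving out either ragweed sample of 24 h kept it (0.0272 and 0.0404). The version 2 A call at 72 h ended in each of the 6 fits that left out 1 sample, with adjusted p from 0.0655 to 0.144.

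Arg2, the mitochondrial arginase, was measured by 98473_at. On first-version A it had 379 and 459 in ragweed at 24 h, against 538 and 373 in PBS at 24 h. Ragweed lungs at 72 h had 578 and 359, against 269.6 and 421 in PBS lungs. The groups overlapped at both times, and the log2 differences were -0.10 ± 0.32 at 24 h and 0.38 ± 0.32 at 72 h (adjusted p 0.974 and 0.770 in limma). The version 2 A values at 72 h did not overlap, with 432 and 500.4 in ragweed lungs against 213 and 236 in PBS lungs. That log2 difference, at least 0.97 ± 0.22 since both PBS values were under the floor, had an adjusted p of 0.164. PBS lungs at 24 h gave 351 and 462 on version 2 A, and against these the log2 difference of ragweed at 72 h was 0.21 (adjusted p 0.721). A second Arg2 probe set on version 2 A, 161246_at, was below the floor on all 6 arrays, between 18.1 and 211 in intensity.

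**Figure D2:**
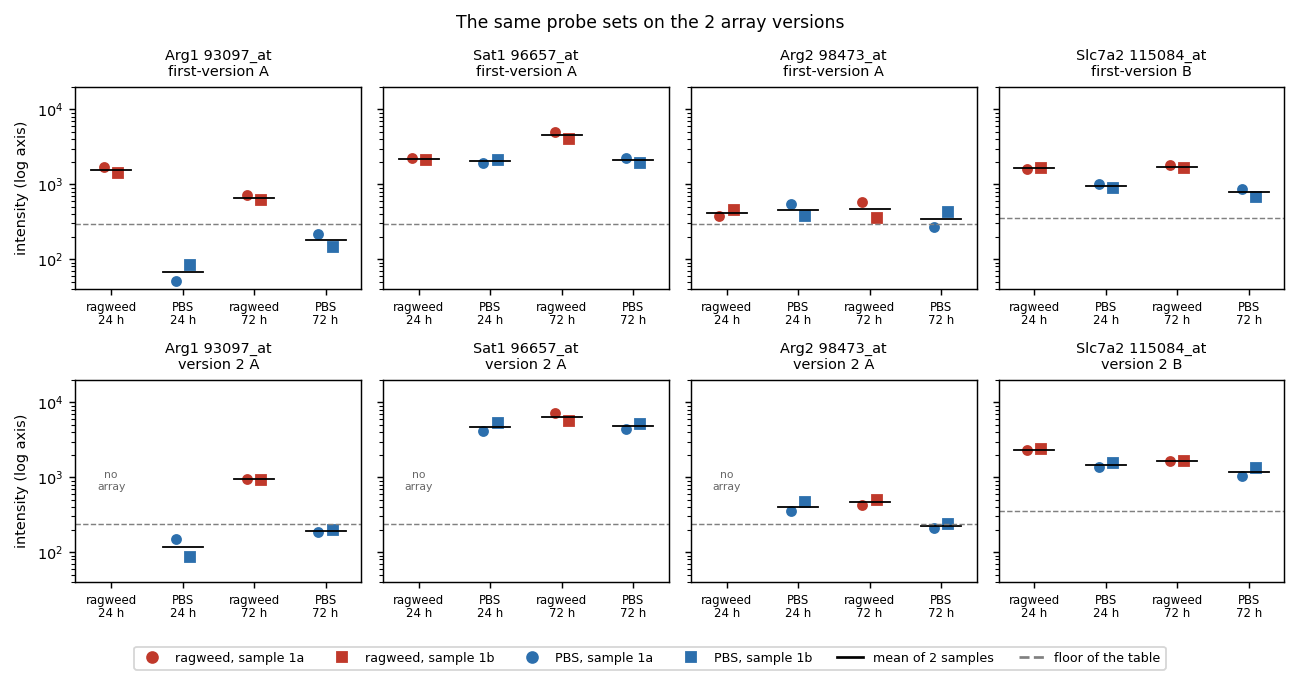
Intensity on a log axis (arbitrary units) of 4 probe sets on first-version arrays (top) and version 2 arrays (bottom), ragweed in red and PBS in blue, circles for samples 1a, squares for samples 1b, black lines for means and dashed lines for floors. Arg1 in ragweed at 72 h is above the floor on both versions, while for Sat1 the ragweed and PBS values at 72 h lie closer together on version 2 A (7335 and 5636 against 4449 and 5211) than on first-version A.

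Slc7a2 encodes a cationic amino acid transporter (CAT2) that carries arginine, and had a probe set on B and another on A. The B probe set, 115084_at, had 2334 and 2364 on version 2 in ragweed at 24 h, against 1363 and 1560 in PBS at 24 h. The values at 72 h were 1656 and 1632 in ragweed lungs, against 1048 and 1326 in PBS lungs. Ragweed samples were above PBS samples at both times without overlap, but the log2 differences of 0.69 ± 0.23 at 24 h and 0.48 ± 0.23 at 72 h did not pass (adjusted p 0.372 and 0.548 in limma). On version 2 B the actin control ratio was 1.09 and 1.08 in ragweed at 24 h, against 0.708 and 0.465 in PBS at 24 h, and its part in the difference was not tested. First-version B also gave no overlap, with 1609 and 1661 in ragweed at 24 h against 1007 and 893 in PBS at 24 h; the 72 h values were 1798 and 1628 in ragweed against 873 and 687 in PBS lungs. The log2 differences there were 0.79 ± 0.27 and 1.14 ± 0.27 (adjusted p 0.631 and 0.140). All 4 of these readings had the same direction, and none passed the test over all probe sets. They came from 1 probe set on 2 array versions of same-coded samples, so they are not 4 separate observations.

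The A probe set of Slc7a2, 92736_at, did not give the same direction at 72 h on the 2 versions. On first-version A it had 705.5 and 878 in ragweed at 24 h, against 585 and 415 in PBS at 24 h, a log2 difference of 0.68 ± 0.35 (adjusted p 0.681 in limma). At 72 h it had 683 and 451 in ragweed lungs, against 496 and 791 in PBS lungs, and the groups overlapped (-0.17 ± 0.35, adjusted p 0.933). On version 2 A it had 457 and 373 in ragweed at 72 h, against 185 and 271 in PBS at 72 h, with no overlap (0.70 ± 0.19, adjusted p 0.236).

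Nos2, the inducible nitric oxide synthase, was measured by 104420_at, which exceeded the floor on 1 array, with 535 in sample 1b of ragweed at 24 h; sample 1a of that group had 160. The other 6 first-version A values ran from 204 to 291.3, and the 6 values on version 2 A from 57.9 to 178. Nos3, the endothelial nitric oxide synthase, was measured by 94167_at and was below the floor on every array of both versions, between 61.0 and 120 on first-version A and between 64.4 and 195 on version 2 A. No difference in either synthase was detectable at this signal. All 9 markers of endothelium exceeded the floor on at least 2 arrays and were tested, none was called, and their summed intensity was 38773 to 39320 in ragweed at 24 h, against 39545 to 43196 in PBS at 24 h, and 38957 to 43984 in ragweed lungs at the later time, against 43940 to 46217 in PBS at 72 h. Of the 9, 3 had a positive difference at each time, with medians of -0.17 at 24 h and -0.21 at 72 h. Single markers moved apart at 72 h. Kdr had -0.93 and Cdh5 -0.58 (adjusted p 0.100 and 0.121 in limma), while Pecam1 had 0.87 and Vwf 0.56 (0.652 and 0.100).

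Odc1 encodes ornithine decarboxylase, the first enzyme of polyamine synthesis. Its tested probe set, 160084_at, was on version 2 A, where it had 577 and 480 in ragweed at 72 h, against 492 and 584 in PBS at 72 h; PBS lungs of 24 h had 1027 and 947. Ragweed and PBS lungs overlapped at 72 h, with a log2 difference of -0.03 ± 0.22 (adjusted p 0.992 in limma). Both PBS values of 72 h lay below both PBS values of 24 h, with a log2 difference of -0.88 ± 0.22 that did not pass (adjusted p 0.249). No value of Odc1 in ragweed at 24 h came from this probe set.

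Srm encodes spermidine synthase and had 3 tested probe sets, which differed from each other. On version 2 B, 165387_i_at had 2019 and 3790 in ragweed at 24 h, against 1632 and 1474 in PBS at 24 h. The values at 72 h were 2886 and 4114 in ragweed lungs, against 2178 and 1663 in PBS lungs. The ragweed samples lay above the PBS samples at both times, with log2 differences of 0.83 ± 0.30 and 0.86 ± 0.30 that did not pass (adjusted p 0.414 and 0.351 in limma). On first-version A, 92540_f_at lay between 559 and 873 in all samples with overlapping groups, and its log2 differences were -0.06 ± 0.27 at 24 h and -0.09 ± 0.27 at 72 h. The same probe set on version 2 A had 514 and 555 in ragweed at 72 h, against 445 and 356 in PBS at 72 h (0.42 ± 0.22, adjusted p 0.549). On version 2 C, 168844_at exceeded the floor of 244.7 in 5 of 8 samples, and its log2 differences were -0.45 ± 0.47 at 24 h and 0.58 ± 0.47 at 72 h. The actin control ratio differed between ragweed and PBS on version 2 B at 24 h and on version 2 C at both times. Its part in these Srm differences was not tested.

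In the tests, spermine synthase was read through probe sets annotated to Sms and to the pseudogene Sms-ps together, so their values cannot be assigned to the gene. On first-version A, the values of 98136_at were 752 and 796 in ragweed at 24 h, against 877 and 547 in PBS at 24 h; at the later time they were 832 and 777 in ragweed lungs, against 709 and 515 in PBS at 72 h. The log2 differences, 0.16 ± 0.30 and 0.41 ± 0.30, did not pass (adjusted p 0.933 and 0.735 in limma). Its version 2 A values were 728 and 933 in ragweed at 72 h, against 842 and 925 in PBS at 72 h, and the groups overlapped (-0.10 ± 0.21, adjusted p 0.916). A second such probe set there, 160630_at, had 394 and 531 in ragweed at 72 h, against 341 and 307 in PBS at 72 h (0.50 ± 0.24, adjusted p 0.492).

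Sat1, the acetyltransferase that starts polyamine breakdown, was measured by 96657_at. On first-version A it had 2258 and 2125 in ragweed at 24 h, against 1945 and 2139 in PBS at 24 h. At 72 h it had 5045 and 4063 in ragweed lungs, against 2258 and 1923 in PBS lungs. The groups overlapped at 24 h (log2 difference 0.10 ± 0.14, adjusted p 0.894 in limma). At 72 h both ragweed values stood above the 6 other values, and the log2 difference was 1.12 ± 0.14 (SE) with an adjusted p of 0.0179. PBS at 72 h and PBS at 24 h differed by 0.03 ± 0.14 on the log2 scale, and against PBS at 24 h the log2 difference of ragweed at 72 h was 1.15 (adjusted p 0.00964).

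The second reading of Sat1 gave a smaller difference. On version 2 A it had 7335 and 5636 in ragweed at 72 h, against 4449 and 5211 in PBS at 72 h; PBS lungs of 24 h had 4106 and 5279. The values did not overlap, but the log2 difference of 0.42 ± 0.18 did not pass (adjusted p 0.447 in limma; 0.274 against PBS at 24 h). On first-version A the call ended when any 1 of the 8 samples was left out, with log2 differences from 0.96 to 1.28 and adjusted p from 0.0751 to 0.159.

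Antizyme 1 was also read through probe sets shared with a pseudogene, here Oaz1 and Oaz1-ps. On first-version A, the values of 101013_at were 13607 and 12576 in ragweed at 24 h, against 12195 and 12280 in PBS at 24 h; at the later time they were 12280 and 11249 in ragweed lungs, against 13508 and 12280 in PBS at 72 h. The log2 differences were 0.10 ± 0.09 and -0.13 ± 0.09 (adjusted p 0.833 and 0.726 in limma), and with trimmed mean scaling in place of quantile normalization they were -0.02 and 0.01. Its 6 values on version 2 A ran from 12987 to 15718, and the log2 difference at 72 h was 0.04 ± 0.14. The other shared probe set, 161360_at, exceeded the floor on 1 of 6 arrays.

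**Figure D3:**
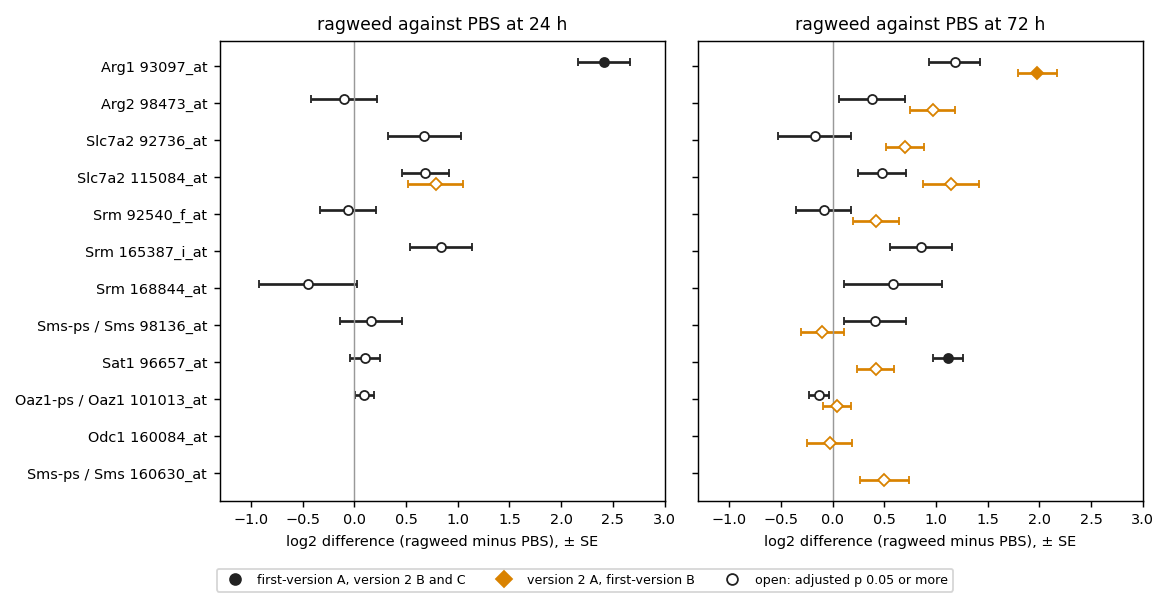
Log2 difference of ragweed minus PBS (x axis) with its standard error for each tested probe set at 24 h (left) and 72 h (right); black circles are first-version A, version 2 B and version 2 C, orange diamonds the other array versions, and filled symbols passed the test. The filled symbols are Arg1 at 24 h and, on version 2 A, at 72 h, and Sat1 at 72 h on first-version A; the Arg1 differences, and that of Arg2 on version 2 A, are lower bounds.

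Whether the response differed between times was tested directly, as the ragweed difference at 72 h minus that at 24 h. None of the 10 probe sets passed, where 0.0356% of all probe sets did in either direction, and 2 of the 10 had an unadjusted p under 0.05, where 7.35% of all did. Arg1 had a log2 difference of -1.23 ± 0.35 between its floored responses (adjusted p 0.517 in limma). With all 4 PBS values at the floor, that is ragweed at 72 h set against ragweed at 24 h. With values raised only to 20 the difference was -2.67 (adjusted p 0.364). That value also takes in a rise of 1.44 in PBS from 24 h to 72 h, all of it under the floor. Sat1 had 1.02 ± 0.20 (adjusted p 0.280). A higher response of Arg1 at 24 h, or of Sat1 at 72 h, was therefore not shown by this test. Between PBS lungs at 72 h and at 24 h none of the 10 passed at the adjusted threshold, where 0.281% of all probe sets did, and none had an unadjusted p under 0.05, where 8.34% did. Arg1 could not differ in this test, since all 4 PBS values were raised to the floor. Its measured values were higher in PBS at 72 h without overlap. Of the 9 IDs tested on version 2 A, those of Odc1 and Arg2 had unadjusted p of 0.00501 and 0.00985 in limma. Both were lower in PBS at 72 h, and neither passed (adjusted p 0.249 and 0.317).

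Genes around the pathway were read with 1 probe set each. Of the 11 tested genes of creatine synthesis and arginine methylation, 1 rose in ragweed lungs at 24 h, against 0.327% of the 12840 genes tested this way. It was Gatm (96336_at), which encodes the amidinotransferase that takes the amidino group of arginine for creatine and releases ornithine. On first-version A Gatm had 1556 and 1578 in ragweed at 24 h, against 331 and 411 in PBS at 24 h, a 4.25-fold difference (log2 2.09 ± 0.26, adjusted p 0.0237 in limma). At 72 h it had 1087 and 1605 in ragweed lungs, against 555 and 594 in PBS lungs (1.20 ± 0.26, adjusted p 0.139). The ragweed values were above the PBS values at both times. Of the other genes of this list, those furthest from 0 were the arginine methyltransferase Carm1, with a log2 difference of -0.96 ± 0.29 at 24 h (adjusted p 0.346), and Gamt, the next enzyme of creatine synthesis, with -0.82 ± 0.44 at 72 h (0.635).

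Gatm had, on version 2 A, 2429 and 2088 in ragweed at 72 h, against 911 and 869 in PBS at 72 h; PBS lungs of 24 h had 785 and 649. This log2 difference at 72 h was 1.34 ± 0.17 with an adjusted p of 0.0354 in limma. The call at 24 h on first-version A ended when any 1 of the 8 samples was left out (adjusted p from 0.0787 to 0.167), with no filter on dim probe sets (0.0735) and with PBS at 72 h as the reference (0.0871). The call at 72 h on version 2 A ended in each of the 6 fits without 1 sample (0.133 to 0.242).

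None of the other 44 tested genes in 6 pathway lists was called at 24 h or at 72 h. The 7 genes of arginine synthesis and the urea cycle had a median log2 difference of 0.39 at 24 h and -0.16 at 72 h. Furthest from 0 were Asl, argininosuccinate lyase, with log2 differences of 0.62 ± 0.48 at 24 h and 0.80 ± 0.48 at 72 h (adjusted p 0.782 and 0.674 in limma), Cps1, carbamoyl phosphate synthetase, with -0.49 ± 0.31 at 72 h (0.693), and Slc25a15, a mitochondrial ornithine carrier, with 0.40 ± 0.35 at 24 h (0.813). The 9 other genes of cationic amino acid transport had medians of -0.10 and 0.01. The differences at 72 h were -0.71 ± 0.36 for Slc7a4 and -0.55 ± 0.40 for the arginine transporter Slc7a1 (adjusted p 0.585 and 0.723 in limma). Slc3a2, the heavy chain of several amino acid transporters, had a log2 difference of -0.46 ± 0.10 at 24 h (adjusted p 0.199 in limma). The 12 genes of nitric oxide cofactor synthesis and regulation had medians of -0.14 at both times. Nostrin, which encodes a protein that binds endothelial nitric oxide synthase, had 6217 and 5985 in ragweed at 72 h, against 14659 and 10281 in PBS at 72 h (-1.01 ± 0.28, adjusted p 0.260). Gchfr, the feedback regulator of the first enzyme of tetrahydrobiopterin synthesis, had at most -1.17 ± 0.46 at 72 h (adjusted p 0.427), and Spr, sepiapterin reductase of the same pathway, -0.68 ± 0.46 at 24 h (0.755).

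The 3 tested genes from ornithine to proline and glutamate included Oat, ornithine aminotransferase, which had 2908 and 2474 in ragweed at 72 h, against 1692 and 2060 in PBS at 72 h (log2 difference 0.52 ± 0.17, adjusted p 0.338 in limma). Prodh, proline dehydrogenase, had -0.92 ± 0.50 at 72 h (adjusted p 0.625), and Aldh4a1, the next enzyme towards glutamate, -0.05 ± 0.14 (0.960). The 9 other polyamine genes, antizyme inhibitors and transporters had medians of -0.10 at 24 h and -0.22 at 72 h, and 0 of the 9 had a positive difference at 72 h. Furthest from 0 at either time were Azin2, an antizyme inhibitor, at -0.68 ± 0.36 at 24 h (adjusted p 0.686), Mtap, methylthioadenosine phosphorylase, at -0.56 ± 0.35 at 24 h (0.737) and -0.55 ± 0.35 at 72 h (0.688), and Sat2, at -0.46 ± 0.47 at 24 h (0.838). The 4 genes of the hypusine pathway, which uses spermidine to modify the translation factor eIF5A, had medians of -0.10 and -0.39. Among them Dhps, deoxyhypusine synthase, had -0.76 ± 0.43 at 72 h (adjusted p 0.643), Eif5a2 -0.66 ± 0.29 (0.516) and Eif5a 0.21 ± 0.44 (0.939). Over all 12840 genes the median was 0.00 at both times.

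**Figure D4:**
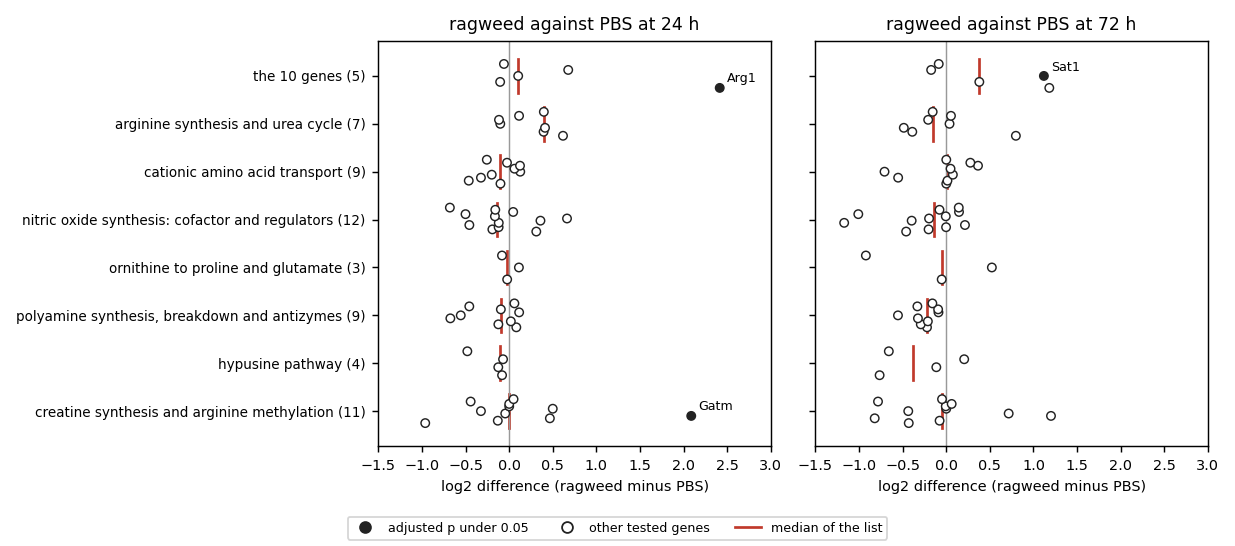
Log2 difference of ragweed minus PBS (x axis) for each tested gene, 1 probe set per gene, in the 10 genes and 7 pathway lists (rows, number of genes tested in brackets) at 24 h (left) and 72 h (right); filled circles passed the test and red lines are list medians. Arg1 and Gatm are the filled points at 24 h and Sat1 is the filled point at 72 h.

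Other genes of alternatively activated macrophages were called at both times. Of 7 tested, 3 rose in ragweed lungs at 24 h, where 0.327% of genes did: Chil3, a chitinase-like lectin, by 4.92 ± 0.12 on the log2 scale (adjusted p 2.7e-06 in limma), Retnla, a resistin-like secreted protein, by 3.70 ± 0.25 (8.36e-05), and Ccl24, an eosinophil chemokine, by at least 2.36 ± 0.40 (0.0442). At 72 h 2 of the 7 rose, where 0.374% of genes did: Chil3 by 4.16 ± 0.12 (1.05e-05) and Retnla by 2.69 ± 0.25 (0.00105). A positive difference was found in 6 of the 7 at 24 h and in 7 of the 7 at 72 h. Msr1 had -0.42 at 24 h, and Fn1 had 0.00 at 24 h and 0.25 at 72 h. Chil3 also differed between PBS lungs at 72 h and at 24 h, by 0.90 (adjusted p 0.0319 in limma). The summed intensity of the list was 62997 to 66616 in ragweed at 24 h, against 8218 to 8793 in PBS at 24 h. At the later time it was 68475 to 73543 in ragweed lungs, against 10527 to 11169 in PBS at 72 h. In ragweed lungs the sum was mostly Chil3, with 43673 and 49622 at 24 h and 52066 and 50946 at 72 h.

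Markers of cell types that the lung could hold were read as well. Of the 7 tested macrophage and monocyte markers 0 were called at 24 h, and their summed intensity was 36174 to 37082 in ragweed lungs, against 49885 to 57225 in PBS lungs; Adgre1, Itgam and Marco were too dim to be tested. The sum was mostly Lyz2, at 27321 in both ragweed samples of 24 h, against 41672 and 49622 in PBS at 24 h, while 5 of the 7 had a positive difference, with a median of 0.16. At 72 h 1 of the 7 rose, Mpeg1 (log2 difference 1.38, adjusted p 0.0498 in limma), 6 of the 7 had a positive difference, with a median of 0.51, and the sums overlapped, with 40816 to 48859 in ragweed lungs against 45826 to 49994 in PBS lungs. Of 5 B and plasma cell markers, 2 were called higher at 24 h, Jchain and Ighm, where 0.327% of genes were. At 72 h 3 of the 5 were, with Mzb1 added, where 0.374% of genes were. Between PBS lungs at 72 h and at 24 h, 2 of the 5 were called higher as well. They were Jchain, by at least 1.99 on the log2 scale, and Ighm, by 1.23 (adjusted p 0.00429 and 0.00691 in limma). The B cell markers Cd79a and Ms4a1 had log2 differences of -0.10 and -0.03 at 24 h. Their differences at 72 h were -0.56 and 0.70 (adjusted p 0.368 and 0.207 in limma). The sums, mostly Ighm, were 17521 to 17877 in ragweed at 24 h against 7004 to 7549 in PBS at 24 h. Later, at 72 h, they were 40542 to 47954 in ragweed lungs against 14707 to 14792 in PBS lungs. Heart and skeletal muscle markers were called at both times: 1 of 8, Acta1, was higher at 24 h (log2 difference 1.64), and 2 of 8 were lower at 72 h, where 0.273% of genes were lower. At 24 h 4 of the 8 had a positive difference, with a median of -0.10, and Myl7 had -1.13 (adjusted p 0.0582 in limma). At 72 h 0 of the 8 had a positive difference, and the median was -0.94. The muscle sums were 16198 to 18258 in ragweed at 24 h against 12431 to 12560 in PBS at 24 h. By 72 h they were 15636 to 16478 in ragweed lungs against 27725 to 29825 in PBS lungs. Between PBS lungs at 72 h and at 24 h, 8 of the 8 had a positive difference, with a median of 1.05, and 1 was called higher. Airway epithelial markers were called higher in 2 of 7 at 24 h, where 3 of 7 had a positive difference and the median was -0.15, and lower in 1 of 7 at 72 h. Between PBS lungs at 72 h and at 24 h, 3 of these 7 were called higher and 1, Krt8, lower. Scgb1a1 had 80239 and 71315 in PBS at 72 h, so its call at 24 h rests on the lower PBS values of that time. Krt8 had -0.88 at 24 h (adjusted p 0.0554). The sums, mostly Scgb1a1 with 71315 and 80239 in ragweed at 24 h against 30595 and 32315 in PBS at 24 h, came to 91364 to 100234 in ragweed at 24 h against 51131 to 51983 in PBS at 24 h, and 90965 to 91593 in ragweed lungs against 102319 to 111600 in PBS lungs at 72 h. Of 9 smooth muscle and fibroblast markers, 1 was higher and 1 was lower at 72 h. The 7 tested alveolar epithelial markers, surfactant genes among them, gave no call, and their sums ran from 97741 to 127717 over the 8 samples. Of 6 tested neutrophil markers, 2 eosinophil markers and 4 T cell markers, 0 were called. The eosinophil markers Prg2, Epx, Ear1, Ear2 and Il5ra were not tested. The tested Siglecf and Ccr3 lay under the floor in several samples, so these markers say little about eosinophils. At 24 h 4 of the 6 neutrophil markers had a positive difference, with Ltf at 1.56 (adjusted p 0.0721 in limma). Ltf also differed by 1.63 between PBS lungs at 72 h and at 24 h (adjusted p 0.0550). Of the 4 T cell markers 1 was positive at 24 h, and Cd3d had -1.94 (adjusted p 0.326). The part of any of these cells in the Arg1, Gatm and Sat1 differences was not tested.

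The patterns most like those of Arg1 and Sat1 were sought among the 6896 tested probe sets of first-version A, by Pearson's r of floored log2 intensity over the 8 samples. The values share arrays and fall into 4 groups, so r describes the likeness and carries no test. The 5 genes most like Arg1 were Agr2 (r = 0.986), Ch25h (0.986), Ccl11 (0.972), Tmem176a (0.962) and Ccl2 (0.955). Agr2 encodes a protein disulfide isomerase of mucous cells, Ch25h cholesterol 25-hydroxylase, and Ccl11 and Ccl2 chemokines for eosinophils and monocytes. The Agr2 intensities were 2148 and 1940 in ragweed at 24 h, against 253 and 381 in PBS at 24 h; at the later time they were 1060 and 914 in ragweed lungs, against 220 and 55.6 in PBS at 72 h. The 5 most like Sat1 were Cd244a, Csf1r, F10, Cdhr5 and Cd83, with r from 0.985 to 0.986. Of these, Cd244a, F10 and Cdhr5 lay under or near the floor in the other samples and were just above it in ragweed at 72 h. Csf1r, the receptor for macrophage colony stimulating factor, had 2602 and 2305 in ragweed at 72 h, against 1640 and 1367 in PBS at 72 h.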

How the data were processed

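Lung RNA of 8 samples was measured on 46 distinct Affymetrix U74 arrays; a 47th equalled the ragweed 24 h 1a first-version A array up to a constant and was not counted. The deposited values are linear intensity, 1 per probe set and array; the authors' software and array build are not given in the sources used here. In the deposited values a 2% trimmed mean of about 800 was found on every version 2 array and on first-version arrays of ragweed lungs, but on no first-version array of PBS lungs. The deposited intensities were turned into log2 values here.

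First-version A (9977 probe sets also on version 2, without controls) was scaled to 800 and quantile normalized; B and C of version 2 were used as deposited. Values under the 40th percentile of a table (291.6, 356.4 and 244.7) were raised to it, and probe sets above it on at least 2 arrays were tested: 6896, 9190 and 9164. The test was limma 3.58.1 in R 4.3.3, fitted per table (1 mean per group, eBayes with trend, 4 residual degrees of freedom), with Benjamini-Hochberg adjustment over the 3 tables. Version 2 A and first-version B and C were fitted likewise, with 3 residual degrees of freedom on version 2 A. Probe sets were named from GEO's platform annotation, with symbols updated through gene IDs; those with several genes are given by ID.

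The members and gene lists were chosen with earlier results of these data known. Named were every probe set of the 10 genes, and in each list the called genes and up to 3 with the largest differences. Same-coded samples of different groups did not deviate together (correlations of the 1a minus 1b differences from -0.079 to 0.044), so the codes were not taken to pair samples.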

Additional observations from a re-analysis of the deposited data

How the results depend on the processing

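Over the planned and added alternatives, the Arg1 difference kept its direction in 17 of 17 settings at 24 h and was called in 11, and in 18 of 18 at 72 h, called in 2; the Sat1 difference at 72 h was positive in 18 of 18 and called in 7. Many of these settings could not move the estimate. They changed only the standard error or the adjustment, or left out samples that the difference does not use. Leaving out a PBS sample also left Arg1 unmoved, since its PBS values lay at the floor. The shared direction is therefore no support by itself. The estimates ran from 2.27 to 4.56 for Arg1 at 24 h and from 1.06 to 1.98 at 72 h. For Sat1 at 72 h they ran from 0.42 to 1.28. PBS of the other time as the reference, and the refits of version 2 A without 1 sample or against PBS of 24 h, were chosen after seeing the data. Beyond the fits without 1 sample, the Sat1 call ended with no filter on dim probe sets (adjusted p 0.0856), without the eBayes trend (0.0738) and on version 2 A; the cause was not tested. In place of the 58 probe sets called at 24 h, the count was 121 with no filter, 91 with adjustment within each table and 22 to 204 with 1 sample left out. In place of 133 at 72 h, it was 80 without the trend, 85 on the other array version, 238 with PBS of both times, 236 with PBS of 24 h, and 2 to 59 with 1 sample left out. In place of 9 for the difference between times, it was 18 without the percentile floor, 123 with no filter, 4 without the trend, 23 within each table and 0 to 5 with 1 sample left out. In place of 71 between PBS times, it was 118 with no filter, 32 without the trend, 41 on the other version and 0 to 20 with 1 sample left out. A replicate block on the codes gave 58, 90, 8 and 59 for these 4 counts and changed no call of the 10 genes. The other version gave no count at 24 h or for the difference, having no version 2 A ragweed array of 24 h. With 2 samples a group and Arg1, Nos2 and Nos3 under the floor in PBS lungs, signal over background limits their folds.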

Other observations

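Some probe sets of the 10 genes were on first-version A and not on version 2 A, and entered no comparison. On first-version A, scaled and quantile normalized over all its probe sets, the Odc1 probe set 93049_at had 198 and 270.3 with ragweed at 24 h, 142 and 268 with PBS at 24 h, then, at 72 h, 301 and 188 with ragweed and 516 and 276 with PBS. The Arg2 probe set 101259_at had 233 and 242 with ragweed at 24 h, 132 and 17.9 with PBS at 24 h, then, at 72 h, 25.2 and 44.3 with ragweed and 97.7 and 61.3 with PBS. The Sms probe set 103390_at lay between 30.7 and 78.0 in all 8 samples. Of the Oaz1 probe sets, 94651_i_at lay between 13.4 and 185 and 94652_f_at between 333 and 484.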
